A study of Mus musculus with 5 samples.

Results

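The 9 genes described here, App, Psen2, Bace1, Adam10, Mapt, Apoe, Clu, Ide and Mme, encode the amyloid precursor protein, enzymes that cut it or degrade its product, 2 secreted lipid carriers and tau. They were chosen by symbol for their place in the biology of Alzheimer disease, and all 9 were found among the 23361 genes listed in each library. Hippocampal tissue of mice aged 3 months was profiled by RNA-seq. The control group (n = 2) was labelled Hdac1f/f, the floxed allele with no Cre named, and its titles call it WT. The Hdac1 cKO group (n = 3) carried the same floxed allele together with Nestin-Cre. Nestin-Cre acts in the brain, and immunostaining in the study found HDAC1 missing from neurons and astrocytes but present in microglia. Young mice in the study were male. The labels give no strain, and mice carrying Nestin-Cre alone were not analysed here. The comparison asks whether loss of this histone deacetylase changed expression of the amyloid and tau genes in young animals. The study counts its RNA-seq groups in mice, although the labels name no animal for a library.

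Amyloid-beta is released from the amyloid precursor protein by successive cuts. The beta-secretase BACE1 cuts first, and the gamma-secretase complex, whose catalytic subunit is a presenilin, then cuts inside the membrane. The alpha-secretase ADAM10 cuts within the amyloid-beta sequence and so prevents its release. Released peptide is degraded by neprilysin (Mme) and insulin-degrading enzyme (Ide), among others, and is bound by the apolipoproteins E (Apoe) and J (Clu), both made largely by astrocytes. Tau (Mapt) binds microtubules in axons and forms the neurofibrillary tangles of the disease.

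None of the 9 genes changed at an adjusted p under 0.05 in limma, where 1 of the 12740 tested genes did (0.00785%). None passed a fold of 1.5 with an unadjusted p under 0.05, against 84 of all tested genes (0.659%), and none passed the unadjusted p alone, against 555 (4.36%). Without moderation of the variances the last count was also 0. The log2 fold changes ran from −0.16 (App) to 0.09 (Apoe), with 3 genes above 0 and 6 below. Their median was −0.03, and that of all tested genes was 0.01. The 95% confidence interval of every member lay within a 1.5-fold change in either direction. The widest limits were 0.687-fold for App and 1.37-fold for Mme. On the log2(FPKM + 0.1) scale the interval for Mme, the lowest member, widened to 0.548-fold to 1.66-fold. The intervals of App and Mme also passed 1.5-fold when libraries were rescaled to a common total, those of App, Psen2 and Mme without moderation of the variances, that of App with quantile normalization and that of Mme with the replicate number as a block. Leaving out 1 library kept 5 to 9 of the 9 intervals within the limit, the fewest without control 1.

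**Figure D1:**
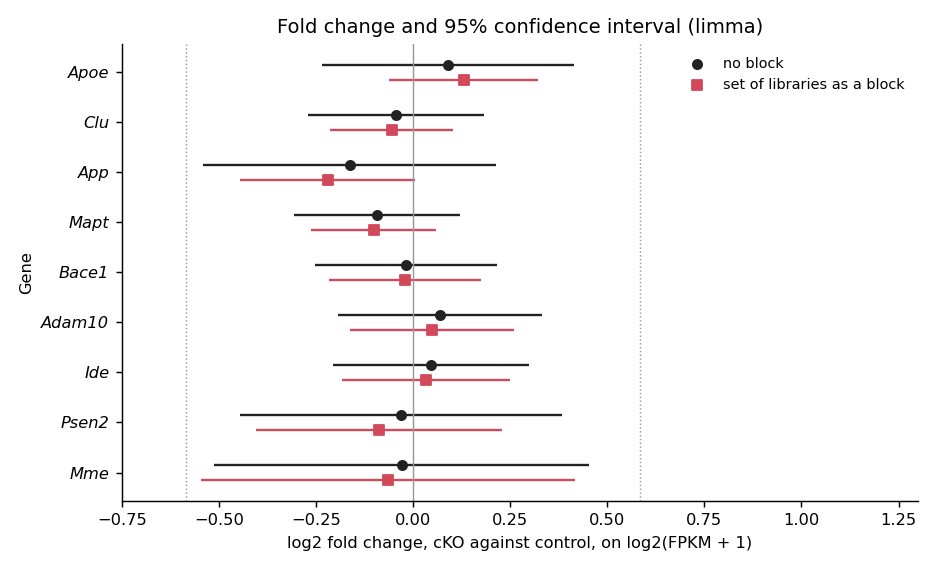
Log2 fold change of each member, cKO against control, on the log2(FPKM + 1) scale. Black points are limma estimates from 2 control and 3 cKO libraries without a block, red squares those with the set of libraries as a block, bars are 95% confidence intervals, and dotted lines mark a 1.5-fold change; all 9 intervals of either fit include 0 and end inside the dotted lines.

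The libraries were checked first by the deleted gene. Hdac1 was at 8.95 and 13.1 FPKM (a fragment count scaled by transcript length and by the library's mapped fragments) in the controls and at 1.95, 3.12 and 3.37 FPKM in cKO 1, 2 and 3. Every cKO library was below both controls, and 17.6% to 30.5% of the control mean was left. Its log2 fold change was −1.66 (SE 0.21, limma adjusted p = 0.219), and it was −1.74 with the set of libraries as a block (limma adjusted p = 0.00389). These sets come from the values, not the labels: low FPKM fell on common steps for control 1 with cKO 1 (set 1), and on other steps for control 2 with cKO 2 and cKO 3 (set 2). Differences are therefore also given within each set, in that order, where too few libraries remain for a test. Estimated depth was 5140000 to 6770000 fragments, and it was lowest in cKO 2. Beside the tissue label, 4 markers of dentate granule cells, a cell type of the hippocampus, summed to 104 to 110 FPKM in controls and 98.4 to 100.4 FPKM in cKO. No other tissue was compared, so these sums do not test the label.

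The members covered more than 3 orders of magnitude, and their order was the same in all 5 libraries. Apoe was highest, followed by Clu, App, Mapt, Bace1, Adam10, Ide, Psen2 and Mme. FPKM are per length, so these levels can be set side by side. The ranges of no 2 neighbours in this order overlapped. The closest were Adam10 and Ide, with medians 1.28-fold apart, where the lowest Adam10 value was 13.8 FPKM and the highest Ide value 12.9 FPKM. Together the members made up 0.510% to 0.560% of the summed FPKM of a library.

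**Figure D2:**
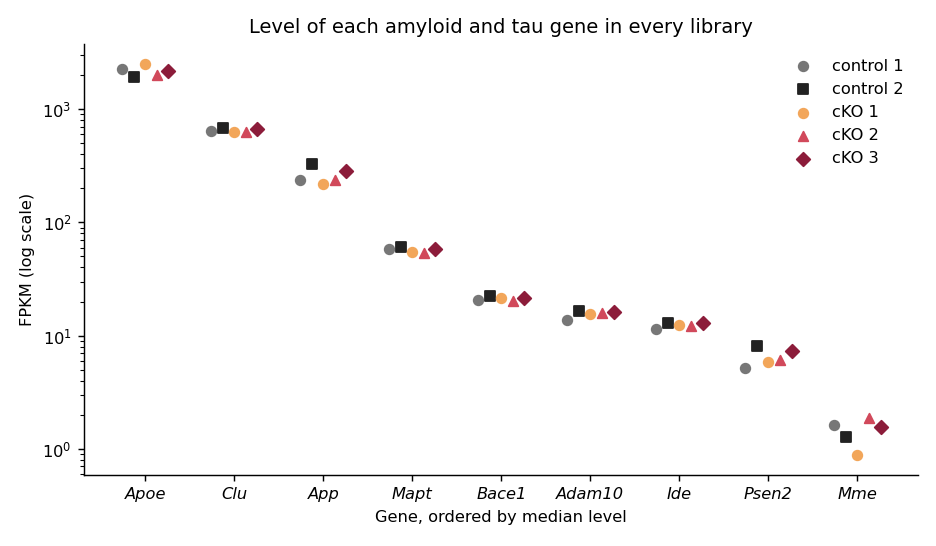
FPKM of each member (log axis) in every library, 2 control and 3 cKO, with members in order of level. Apoe lies between 1937 and 2525 FPKM and Mme between 0.880 and 1.88 FPKM, and the order of the members is the same in each library.

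App encodes the substrate of the secretases. The gene (ENSMUSG00000022892.9) lies on the minus strand at chr16:84954685-85173952 (mm9). The stretch that codes for amyloid-beta is shown because the level of this message is the starting point of the whole pathway. It spans 126 nt from exonic segments at chr16:84965915-84965965 and chr16:84963039-84963113, and its capitals mark codon 1, where beta-secretase cleavage begins the peptide, codon 17, the first after the alpha-secretase cut, and codon 42, the last of the longer common form.

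App amyloid-beta coding stretch: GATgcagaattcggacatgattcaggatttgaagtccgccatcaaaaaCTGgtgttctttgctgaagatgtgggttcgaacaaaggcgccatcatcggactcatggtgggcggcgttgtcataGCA

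The stretch was present and identical in 4 of the 5 annotated App transcripts, which encode proteins of 695, 735, 752 and 770 residues. The fifth encodes 582 residues and lacks it. The deposited values are per gene, so they do not separate these forms.

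App was at 234 and 326 FPKM for the control libraries, against 220, 238 and 286 FPKM for cKO 1, 2 and 3. The groups overlapped: control 2 was the highest library and control 1 lay below 2 of the 3 cKO libraries. Means were 280 ± 64.6 FPKM in controls (SD, n = 2) and 248 ± 33.9 FPKM in cKO mice (SD, n = 3). The fitted log2 change was −0.16 (SE 0.16, 95% interval −0.54 to 0.21, limma adjusted p = 0.965). App was lower within both sets, with log2 differences of −0.09 and −0.32. In the fit that blocked on the set it was −0.22 (95% interval −0.45 to 0.00431, limma adjusted p = 0.540). Without control 2 it turned to 0.07, and without control 1 it was −0.40.

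Bace1, the beta-secretase, lies on the plus strand at chr9:45646663-45672482 (mm9; ENSMUSG00000032086.6). It was at 20.5 and 22.3 FPKM for the control libraries, against 21.7, 20.1 and 21.6 FPKM for cKO 1, 2 and 3. All 5 values lay within a narrow range, with a coefficient of variation of 4.17% across libraries, and the groups overlapped. On the log2 scale cKO minus control was −0.02 (SE 0.10, 95% interval −0.25 to 0.21, limma adjusted p = 0.989), with 0.07 and −0.09 within the sets. Bace1 shares 1434 of its 6348 exonic nt with Rnf214 on the opposite strand (mean 12.6 FPKM), and whether fragments were counted by strand was not given in the sources used here. Part of the Bace1 value may therefore be Rnf214 signal.

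Adam10, the main neuronal alpha-secretase, lies on the plus strand at chr9:70526804-70628036 (mm9; ENSMUSG00000054693.7). Its values were 13.8 and 16.6 FPKM for the control libraries, against 15.7, 16.0 and 16.2 FPKM for cKO 1, 2 and 3. The cKO values lay between the controls. The log2 fold change was 0.07 (SE 0.11, 95% interval −0.19 to 0.33, limma adjusted p = 0.977), with 0.17 and −0.05 within the sets. It turned to −0.06 without control 1.

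Psen2 encodes presenilin 2, a catalytic subunit of gamma-secretase, on the minus strand at chr1:182157135-182193569 (mm9; ENSMUSG00000010609.9). It was at 5.23 and 8.08 FPKM for the control libraries, against 5.80, 6.04 and 7.29 FPKM for cKO 1, 2 and 3. As for Adam10, all cKO values lay between the controls. Limma gave a log2 fold change of −0.03 (SE 0.18, 95% interval −0.45 to 0.38, limma adjusted p = 0.989), with 0.13 and −0.25 within the sets. It turned to 0.24 without control 2. These levels rest on an estimated 63 to 108 fragments per library, for which counting alone gives a coefficient of variation of 9.62% to 12.6%. The coefficient observed across libraries was 18.0%.

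The degrading enzymes were the lowest of the members with Psen2. Ide, a cytosolic and secreted zinc protease, lies on the minus strand at chr19:37343233-37412342 (mm9; ENSMUSG00000056999.8). It was at 11.4 and 12.9 FPKM for the control libraries, against 12.5, 12.3 and 12.9 FPKM for cKO 1, 2 and 3. Control 1 was the lowest library and the groups overlapped. Limma put the log2 fold change at 0.05 (SE 0.11, 95% interval −0.21 to 0.30, limma adjusted p = 0.989). It turned to −0.04 without control 1 and to −0.02 with a common total, and it was 0.13 and −0.04 within the sets.

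Mme encodes neprilysin, a membrane-bound protease, on the plus strand at chr3:63099794-63186153 (mm9; ENSMUSG00000027820.6). It was at 1.64 and 1.28 FPKM for the control libraries, against 0.880, 1.88 and 1.57 FPKM for cKO 1, 2 and 3. The cKO libraries held both the lowest and the highest value, 2.13-fold apart. The fitted log2 change was −0.03 (SE 0.21, 95% interval −0.51 to 0.45, limma adjusted p = 0.989). Its sign differed between the sets, with −0.49 in set 1 and 0.25 in set 2, and it turned to 0.15 without cKO 1 and to 0.07 without control 1. An estimated 25 to 46 fragments per library stand behind these values, for which counting alone gives a coefficient of variation of 14.7% to 20%. The coefficient observed across libraries was 26.4%.

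Apoe encodes the main lipid carrier of the brain and lies on the minus strand at chr7:20281458-20284515 (mm9; ENSMUSG00000002985.9). It was at 2276 and 1937 FPKM for the control libraries, against 2525, 2013 and 2189 FPKM for cKO 1, 2 and 3. It lay above about 99.9% of listed genes in each library, and its groups overlapped. Means were 2106 ± 240 FPKM in controls (SD, n = 2) and 2242 ± 260 FPKM in cKO mice (SD, n = 3). On the log2 scale cKO minus control was 0.09 (SE 0.14, 95% interval −0.24 to 0.41, limma adjusted p = 0.976). Apoe was the only member above 0 within both sets, at 0.15 and 0.12, but it turned to −0.09 with quantile normalization, to −0.03 without control 2 and to −0.00015 without cKO 1.

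Clu encodes clusterin, a secreted chaperone, on the plus strand at chr14:66587320-66600385 (mm9; ENSMUSG00000022037.8). It was at 643 and 681 FPKM for the control libraries, against 627, 629 and 669 FPKM for cKO 1, 2 and 3. Its coefficient of variation across libraries, 3.75%, was the smallest of the members. The log2 fold change was −0.04 (SE 0.10, 95% interval −0.27 to 0.18, limma adjusted p = 0.988). Within the sets it was −0.04 and −0.07.

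Astrocytes are the main source of Apoe and Clu message in the brain, so their markers are given beside these genes. The 10 astrocyte markers summed to 2755 to 2772 FPKM in controls and 2996 to 3154 FPKM in cKO, with none at 0 FPKM in all libraries. Of these, 8 had log2 fold changes above 0 and 2 below (median 0.16), or 6 and 4 under each of the other scalings, where the median was still above 0. Aqp4, the astrocytic water channel, was at 54.4 and 54.4 FPKM in controls and at 89.4, 98.4 and 94.6 FPKM in cKO, and Gfap, the astrocytic intermediate filament, at 309 and 263 against 374, 364 and 415 FPKM. Aqp4 had a log2 fold change of 0.78 (limma adjusted p = 0.175, or 0.0187 in the set-block fit). It was the only astrocyte marker past an adjusted p under 0.05 in the set-block fit, as were 5 of all 12740 genes. None passed without the block, where 2 of the 10 passed the unadjusted p, against 4.36% of all tested genes. With the block the markers past the unadjusted limma p were Aqp4, Gfap, Slc1a2, Slc1a3 and Gja1, where 1190 of all 12740 genes passed. The part of the astrocyte markers in the Apoe and Clu values was not tested. In bulk tissue, fewer cells of a type and less RNA per cell cannot be told apart. Clu is also a gene of the choroid plexus, whose 8 markers reached sums of 167 and 6.29 FPKM for the control libraries, against 75.2, 604 and 25.2 FPKM for cKO 1, 2 and 3. In every library but control 2 most of this sum was Ttr, at 589 FPKM in cKO 2, and its part in the Clu values was not tested.

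Mapt encodes tau and lies on the plus strand at chr11:104092704-104193404 (mm9; ENSMUSG00000018411.10). It was at 58.8 and 60.3 FPKM for the control libraries, against 54.4, 54.2 and 58.7 FPKM for cKO 1, 2 and 3. It was the only member whose groups did not overlap, with all 3 cKO libraries below both controls, although cKO 3 lay just 0.06 FPKM below control 1. Groups lay apart in this direction for 9.41% of all tested genes, and in the other direction for 11.0%, where no member did. Means were 59.5 ± 1.08 FPKM in controls (SD, n = 2) and 55.8 ± 2.57 FPKM in cKO mice (SD, n = 3). Limma gave a log2 fold change of −0.09 (SE 0.09, 95% interval −0.31 to 0.12, limma adjusted p = 0.963). Within the sets it was −0.11 and −0.09.

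Mapt is a neuronal gene, and markers of neurons are given beside it. All 10 general neuron markers had log2 fold changes below 0 (median −0.14), and none was at 0 FPKM in all libraries. They summed to 2277 to 2574 FPKM in controls and 2170 to 2442 FPKM in cKO, so the sums overlapped. Within both sets the cKO sums were lower, at 2277 against 2170 FPKM in set 1 and 2574 against 2179 and 2442 FPKM in set 2. Of 7 interneuron markers 3 were above 0 and 4 below (median −0.04). Without control 2 the median of the general markers was 0.01 with 5 above and 5 below 0, while Mapt was −0.08. Their part in the Mapt value was not tested.

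**Figure D3:**
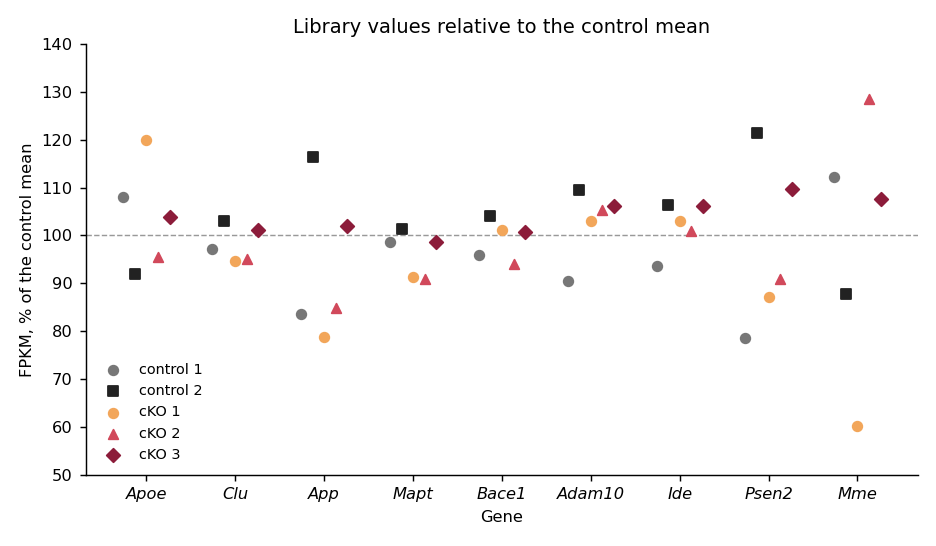
FPKM of each member in every library as a percentage of that gene's control mean, with libraries marked by group and replicate. The cKO values of App run from 78.7% to 102% of the control mean, and Mme has the widest spread.

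Control 2 held the highest value of 7 of the 9 members, all but Apoe and Mme. After median-ratio scaling of the libraries it was still highest for 5. How many of all tested genes were highest in control 2 was not counted. Without control 2 the median log2 fold change of all tested genes was 0.04, against 0.01 with every library. cKO 1 was highest for Apoe and cKO 2 for Mme. Which control was used changed the direction of the members other than Mapt and Clu, which were below 0 with either. The controls lay in different sets, so control and set cannot be told apart. Within both sets App, Mapt and Clu were lower, Apoe was higher, and the other 5 had opposite signs in the sets.

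Ratios of 2 members in one library do not depend on how that library was scaled. Bace1 to Adam10, the competing first cuts of App, was 1.49 and 1.34 for the control libraries, against 1.38, 1.26 and 1.34 for cKO 1, 2 and 3. The difference of the mean log2 ratio was −0.09 (two-sided exact permutation p = 0.4, adjusted 0.875 over 5 ratios). Psen2 to App was 0.0223 and 0.0248 in controls and 0.0263, 0.0254 and 0.0255 in cKO, and it was the only ratio whose groups lay apart. Its difference was 0.13 (exact permutation p = 0.1, the smallest this design can give, adjusted 0.5), and within the sets it was 0.24 and 0.04. The remaining differences were 0.07 for Mapt to App (exact p = 0.7), −0.13 for Clu to Apoe (exact p = 0.6) and 0.13 for Ide to Mme (exact p = 0.9). Within the sets, Bace1 to Adam10 (−0.11 and −0.05) and Clu to Apoe (−0.18 and −0.19) were lower in both, while Mapt to App (−0.02 and 0.23) and Ide to Mme (1.03 and −0.46) differed in sign.

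**Figure D4:**
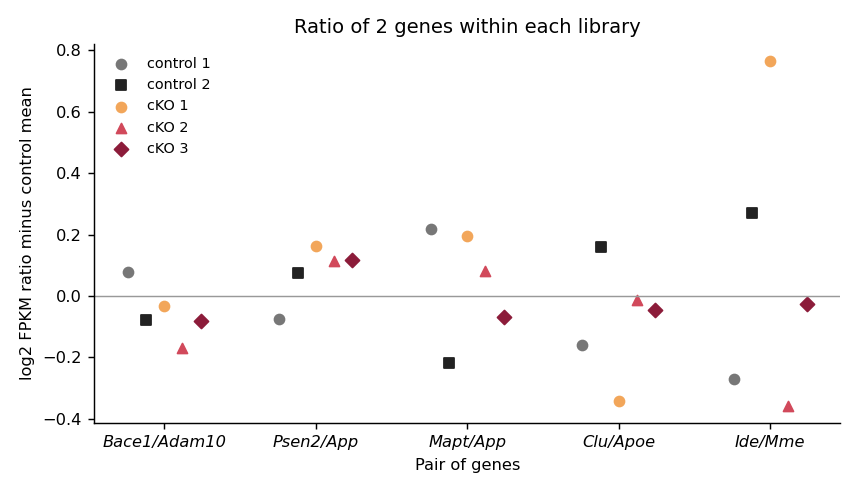
Log2 ratio of the FPKM of 2 members in each library, minus the mean of the control libraries for that pair. Psen2 to App is the only pair whose cKO points all lie on one side of both controls, and Ide to Mme has the widest spread, from 6.53 to 14.2 as a ratio.

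The rest of the pathway was read from 10 lists with 104 genes, of which 100 were tested. In these, 40 lay above 0 and 60 below, with a median log2 fold change of −0.02. None passed an adjusted p under 0.05 (smallest 0.955 in limma), and 5 of the 100 passed the unadjusted p, near the 4.36% of all tested genes. Without moderation 8 did, where 644 of all 12740 did, and with the set as a block 11, where 1190 of all did, again with none past an adjusted p under 0.05. The 11 were the 5 genes of the fit without a block (Mmp14, Apod, Vps26a, Map1a and Stmn2) and Aph1b, Rtn3, Gsk3a, Gsk3b, Map7d1 and Map7d2, with unadjusted limma p from 0.00417 (Stmn2) to 0.0458 (Gsk3b).

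Around App and its cleavage, members of the gamma-secretase complex were split, 3 above 0 and 3 below. The highest was Aph1b, a scaffold subunit, at 10.3 and 10.9 FPKM against 11.6, 14.3 and 12.9 FPKM (0.26, limma unadjusted p = 0.0626). Of 11 APP-like proteins and adaptors 4 were above 0 and 7 below, from the adaptor Apba1 (−0.18) to Itm2b, whose product inhibits APP processing (0.12). Of 6 other secretases and their regulators 2 were above 0 and 4 below. Rtn3, a reticulon that binds and inhibits BACE1, was lowest at 152 and 161 FPKM in controls and 141, 136 and 142 FPKM in cKO (−0.16), and the alpha-secretase Adam17 highest (0.05).

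For clearance and lipid carriage, 4 of 7 other amyloid-degrading proteases were above 0 and 3 below. Mmp14, a membrane-bound metalloproteinase, had the smallest unadjusted p of all the pathway genes, at 4.82 and 5.10 FPKM in controls and 7.47, 6.65 and 8.62 FPKM in cKO. The groups lay apart, but the log2 fold change of 0.52 (SE 0.14, unadjusted p = 0.00492) did not pass correction (limma adjusted p = 0.955). The lowest of that list was the endothelin-converting enzyme Ece1 (−0.23). Among 13 apolipoprotein receptors and lipid-loading genes, 7 were above 0 and 6 below. Apod, a lipocalin made by glia, was at 31.4 and 31.3 FPKM in controls and 41.9, 33.3 and 52.3 FPKM in cKO (0.40, limma unadjusted p = 0.0446), and the phospholipid transfer protein gene Pltp was lowest (−0.13). Of 10 genes of APP sorting 6 were above 0 and 4 below. The retromer subunit gene Vps26a was at 20.8 and 24.2 FPKM in controls and 25.3, 30.1 and 29.2 FPKM in cKO (0.31, limma unadjusted p = 0.0302), and Sorcs1, a sorting receptor, was lowest (−0.17). Of 7 microglial risk genes 4 were above 0 and 3 below, from Cd33 (−0.21) to the lipid receptor Trem2 (0.25).

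On the tau side, 15 of 18 tau kinases lay below 0 and 3 above (median −0.10), and none passed the unadjusted p. In the set-block fit 2 of them passed it, Gsk3a and Gsk3b, which were named after their values were seen. Of all tested genes, 5896 of 12740 lay below 0. They ran from Cdk5r2, an activator of CDK5 (−0.27), to Mapk8 (0.05). Of 11 other microtubule-associated proteins 9 lay below 0 and 2 above (median −0.19). Among these, Stmn2, a microtubule-destabilising protein of axons, was at 71.9 and 78.7 FPKM in controls and 61.7, 64.9 and 63.5 FPKM in cKO (−0.24, limma unadjusted p = 0.0304). Map1a, a dendritic microtubule protein, was at 127 and 133 FPKM in controls and 107, 117 and 111 FPKM in cKO (−0.22, limma unadjusted p = 0.0444). Map7d1 was lowest (−0.33, limma unadjusted p = 0.0610). Map2, which marks dendrites, was highest, at 295 and 284 FPKM in controls and 313, 359 and 308 FPKM in cKO (0.17), so not all of the family ran with Mapt. Of 11 tau phosphatases and chaperones 5 were above 0 and 6 below, and the co-chaperone Fkbp4 was lowest (−0.15). The medians of the kinases and of the microtubule-associated proteins were below 0 under each scaling and with each library left out. Many genes of these 2 lists are expressed in neurons, and the part of the neuronal markers in their values was not tested.

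**Figure D5:**
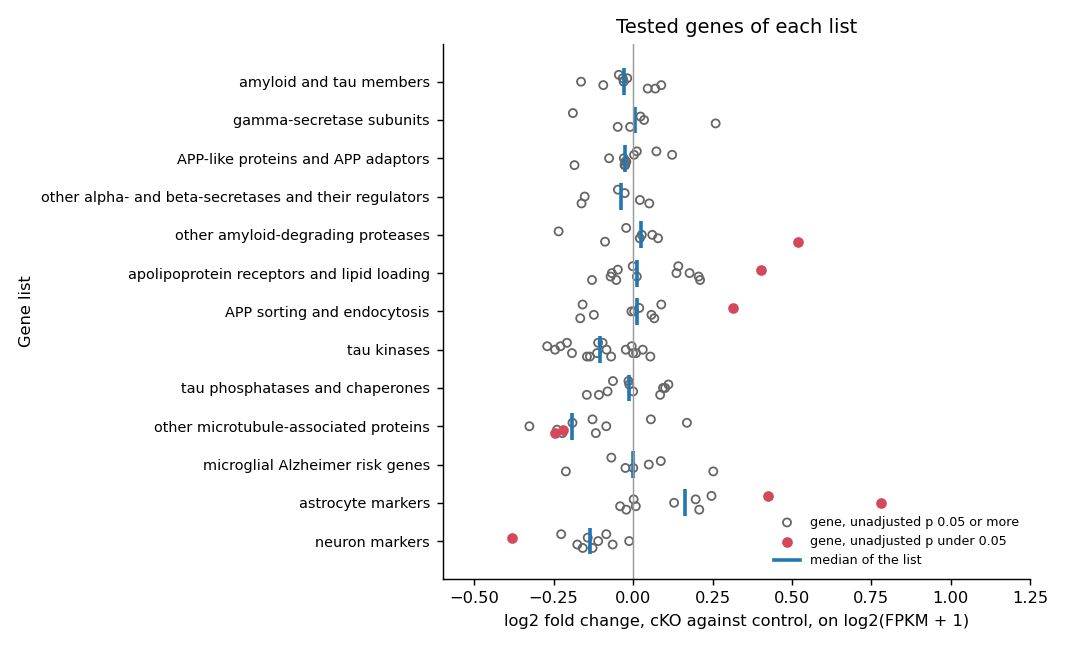
Log2 fold change (cKO against control, log2(FPKM + 1) scale) of every tested gene of the members, of 10 pathway lists and of the astrocyte and neuron markers, with filled red points for an unadjusted limma p under 0.05 and a blue line at the median of each list. Most tau kinases (15 of 18) and microtubule-associated proteins (9 of 11) lie below 0, and Mmp14, at 0.52, lies farthest above it among the pathway genes.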

How the data were processed

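The authors aligned TruSeq total RNA libraries, sequenced on an Illumina instrument, to mm9 with TopHat and Bowtie, and the deposited values are FPKM per gene from Cufflinks 2.0.0. The test behind their fold of 1.5 with P under 0.05 was not named. FPKM were analysed as log2(FPKM + 1) with limma 3.58.1 in R 4.3.3 (trended empirical Bayes, two-sided, Benjamini-Hochberg adjusted over all 12740 genes that averaged 1 FPKM or more). This scale understates changes of low genes. Ratios were tested by exact permutation over the 10 arrangements of the 5 libraries. The members and lists were chosen with earlier results of these data known. Named were Hdac1, the members and, in each list, genes with an unadjusted p under 0.05 and the highest and lowest fold change. Gsk3a, Gsk3b, Map7d2, Slc1a2, Slc1a3 and Gja1 were named after their values were seen. Some results under this rule are not reported here. Groups came from the sample titles.

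Depth was estimated from the FPKM step of 1 fragment (30 to 77 genes per library) and is approximate, and counting errors from it cover counting only. Libraries were put in one set where over 10% of low genes (mean under 0.3 FPKM) had ratios in a common window of 0.05 log2 units. Pairs within sets shared 24.6% to 28.4%, and pairs across sets 3.71% to 4.64%. Coordinates and sequences are from the mm9 (NCBIM37) assembly with GENCODE annotation, in which 21207 listed symbols (90.8%) matched. BLAST 2.17.0 found no copy of a member elsewhere at 95% identity over 200 nt. The fit was tested on simulated data.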

Additional observations from a re-analysis of the deposited data

How the results depend on the processing

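Under 16 alternatives no member passed an adjusted p under 0.05 or a fold of 1.5 with an unadjusted p under 0.05, and adjusted p ran from 0.418 (App, replicate block) to 1.0. Of 143 member values 130 kept their direction. The other filters on mean FPKM, no variance trend and no moderation left the member fold changes unchanged, so they could not turn them. The replicate block gave the same fold changes as leaving out cKO 3. Mapt and Clu kept their direction throughout, at −0.16 to −0.07 and −0.14 to −0.0028. The direction turned with a common total for Ide (−0.016), Adam17 (−0.0021) and Mapk8 (−0.0097), with quantile normalization for Apoe (−0.091), and with the replicate or set block for Adam17 (−0.019 and −0.020). With 1 library left out the log2 fold change ran from −0.40 to 0.073 for App, −0.30 to 0.24 for Psen2, −0.075 to 0.038 for Bace1, −0.058 to 0.20 for Adam10, −0.028 to 0.20 for Apoe, −0.039 to 0.13 for Ide, −0.16 to 0.15 for Mme, −0.16 to 0.26 for Adam17, −0.31 to 0.0070 for Pltp and −0.017 to 0.13 for Mapk8. The log2 ratio differences ran from −0.15 to 0.29 (Mapt to App), −0.29 to 0.025 (Clu to Apoe) and −0.19 to 0.40 (Ide to Mme). A common total moved the all-gene median from 0.01 to −0.05 and the 1.5-fold calls from 51 higher of 84 to 51 of 124. Mme was not tested at a minimum mean of 5 FPKM. The causes were not tested.

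With the replicate block Hdac1 was at −1.77 and with the set block at −1.74, both past an adjusted p under 0.05. Titles share replicate numbers but give no common litter, and same-numbered libraries deviated together at r = 0.402 and 0.269. With 2 controls the control deviations mirror each other, so these values are not independent. Both pairs lie within the sets, and cKO 3 also deviated with control 2 of its set (r = 0.151). Replicate number and set can therefore not be told apart by these values. cKO 3 has no control of its number, so the replicate block takes its differences from the other 4 libraries. It moved calls over all genes from 1 to 14 at an adjusted p under 0.05, and from 84 to 133 at 1.5-fold. Here App had −0.27 (unadjusted p = 0.0307). Without control 1 it had −0.40 (unadjusted p = 0.0432). Over all genes 1430 of 12740 and 420 of 12746 passed an unadjusted p under 0.05 in these limma fits. The set block gave 5 and 95, no moderation 0 and 31, a pseudocount of 0.1 gave 142 at 1.5-fold, a minimum of 5 FPKM 43, and removal of control 2 gave 234. Among the members the estimated fragments were fewest for Mme (25 to 46) and Psen2 (63 to 108).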
